A study of Homo sapiens with 9 samples.

Results

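The replication-dependent histone genes encode the bulk histones that package newly copied DNA. They were taken as every row of the gene table whose symbol is H1-1 to H1-6 or H2AC, H2BC, H3C or H4C followed by a number, with at least 10 estimated counts in at least 3 libraries. Of 59452 gene rows, 66 carried such a symbol and 45 reached the minimum: 4 genes for linker histone H1, 12 for H2A, 15 for H2B, 7 for H3 and 7 for H4. MDA-MB-453 is a wild-type human breast cancer cell line that the sample descriptions call triple-negative. Cells were grown for 48 hours in 1 of 3 ways, with 3 biological replicates each: attached with vehicle (DMSO), in forced suspension on poly-HEMA-coated plastic with vehicle, and in the same forced suspension with 10 µmol/L AT-0174, a dual inhibitor of the tryptophan-degrading enzymes TDO2 and IDO1. No attached cells with AT-0174 were among the 9 libraries. A single line carried every comparison.

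Most mRNAs end in a poly(A) tail, but those of the replication-dependent histone genes end a few bases after a short conserved stem-loop instead. The stem-loop-binding protein SLBP, the U7 snRNP and the cap-binding complex take part in cutting and using that end, and the mRNAs are known to accumulate in S phase and to be degraded when DNA synthesis stops. Some of the same genes can also make longer transcripts that run past the stem-loop to a poly(A) signal. A library made from mRNA selected by its tail captures the tailless form poorly, so levels of these genes in such a library are not total histone mRNA levels. The study's methods name an mRNA library kit and the sample descriptions another one, and which of them applies cannot be read from the counts.

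All 45 genes had a position in GENCODE release 44 (GRCh38), 2 of them (H2AC18 and H2AC19) by symbol only. On chromosome 6 lay 37 of them, between positions 26031589 and 27893891, and on chromosome 1 the other 8, between 149782689 and 149887411. Each of the 45 had a stem-loop in the 150 bases after its stop codon, that is, in the 3′ untranslated region. The letters searched were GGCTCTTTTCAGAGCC on the coding strand, and up to 2 mismatches were allowed. In the outer T-A pair of the stem, C was also accepted for the T and G for the A, each on its own. H2AC11, with T and G there, thus counted as having no mismatch. No mismatch was found in 31 genes, 1 mismatch in 13 and 2 in H2BC10. The stem-loop began 22 to 67 bases after the stop codon, with a median of 36. It is shown here because it is the end of the tailless form of these mRNAs. The 4 most common forms were shared by 27 genes (as in H2AC19), by 6 (as in H2BC12), by 4 (as in H4C15) and by 3 (as in H4C8). The capitals mark the 16 bases of the stem-loop, 5′ to 3′ on the coding strand.
H2AC19: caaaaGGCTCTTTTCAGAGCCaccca
H2BC12: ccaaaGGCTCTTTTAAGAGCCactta
H4C15: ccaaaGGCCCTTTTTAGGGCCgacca
H4C8: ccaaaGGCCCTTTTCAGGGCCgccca
These lie at chr1:149851569-149851594, plus strand (H2AC19), chr6:27146361-27146386, minus strand (H2BC12), chr1:149860764-149860789, minus strand (H4C15) and chr6:26285126-26285151, minus strand (H4C8).

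Promoter sequences from RefSeq (GRCh38), 250 bases before to 50 after the start, matched 44 of the 45 genes. Motifs were searched by their letters on both strands. The octamer ATTTGCAT, the site by which POU2F1 (Oct-1) is known to act on H2B genes, was in 12 of 15 H2B promoters, 8 of 12 H2A promoters and in 0 of the H1, H3 and H4 promoters, against 1.77% of all 35116 promoters. CCAAT stood in all 37 H1, H2A, H2B and H3 promoters and in 1 of 7 H4 promoters (34.6% of all promoters), and TATAAA in 27 of 44 (11.5%). The H1 box AAACACA was in all 4 H1 promoters and in 5.64% of all promoters. A match is a description of these letters and not a measured binding site, and pairs that sit back to back share part of the window. The 250 bases before the start are shown for H2BC12, the histone gene of highest level, and for H2BC21 and H4C15, the genes called below, with matches to the octamer, TATAAA and CCAAT in capitals. In H2BC21 and H2BC12 the octamer began 46 bases before the start, whereas the window of H4C15 held none of the 3 motifs.
H2BC21: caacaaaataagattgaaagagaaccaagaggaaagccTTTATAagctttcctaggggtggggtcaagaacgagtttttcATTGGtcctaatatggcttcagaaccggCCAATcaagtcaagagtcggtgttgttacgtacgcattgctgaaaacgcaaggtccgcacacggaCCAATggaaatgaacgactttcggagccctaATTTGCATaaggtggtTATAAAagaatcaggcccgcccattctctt
H2BC12: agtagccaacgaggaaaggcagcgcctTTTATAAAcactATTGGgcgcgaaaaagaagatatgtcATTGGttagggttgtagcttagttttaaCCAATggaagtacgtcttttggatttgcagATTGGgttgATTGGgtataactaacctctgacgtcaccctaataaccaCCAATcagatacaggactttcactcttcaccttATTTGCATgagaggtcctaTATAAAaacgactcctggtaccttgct
H4C15: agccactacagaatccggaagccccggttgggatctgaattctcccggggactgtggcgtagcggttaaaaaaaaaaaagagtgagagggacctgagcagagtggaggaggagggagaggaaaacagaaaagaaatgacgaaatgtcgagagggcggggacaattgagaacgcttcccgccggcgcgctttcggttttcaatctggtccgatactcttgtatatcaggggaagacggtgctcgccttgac
These windows are chr1:149886683-149886932, minus strand (H2BC21), chr6:27146859-27147108, minus strand (H2BC12) and chr1:149861160-149861409, minus strand (H4C15).

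The libraries held 36649997 to 48019126 estimated counts, and a count of 0 in a library allows up to 0.0625 to 0.0819 CPM (3 counts of the total, for counting error only). Levels are given as CPM (counts relative to the library size, the usual unit of depth-scaled counts) with the library size scaled by the trimmed mean of M values (TMM), as mean ± SD of 3 libraries, unless TPM is stated. The luminal marker GATA3 averaged 1248 to 1325 CPM in the 3 conditions. KRT5, KRT14, PTPRC, CD3E and DCN were each at or below 0.0708 CPM on average. Of the 11 markers of other cell types, 2 passed the filter on low counts, CD68 and COL1A1, and COL1A1 lay at 137 ± 10.2 CPM in attached and 113 ± 0.944 CPM in suspended cells (log2 fold change −0.28, adjusted p 0.00182). Of 11 luminal markers, 6 were called in suspension, all higher, with a median log2 fold change of 0.14. Among all genes tested, 21.2% were called in this comparison and 10.4% were called higher. The part of these marker changes in the histone results was not tested. ERBB2 averaged 1051 to 1062 CPM.

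Together the 45 genes made up 409 ± 4.65 CPM in attached cells, 423 ± 10.2 in suspended cells with vehicle and 410 ± 8.29 in suspended cells with AT-0174. A few genes carried most of this. H2BC12, H2AC19, H2BC5, H2BC21, H2AC6 and H1-2 took 60.0% of the summed CPM, and the 10 highest genes took 77.6%. TPM (transcript abundance per length and library) is a length-adjusted scale on which genes can be compared, as far as the lengths of their models hold. H2BC12 led the H2B genes with a mean of 299 TPM over the 9 libraries, followed by H2BC5 at 94.3 and H2BC4 at 28.04. H2AC19 led the H2A genes with 162 TPM, ahead of H2AC6 at 50.5 and H2AC13 at 17.98. Of the H1 genes, H1-2 stood at 71.8 TPM and H1-3, H1-4 and H1-5 at 1.49 or less. H4C14 (49.9 TPM), H4C15 (24.2) and H4C8 (23.8) led the H4 genes. Of the H3 genes, H3C10 stood at 18.01 TPM and H3C8 at 3.85. The H3C8 model has 2411 bases, while the gene spans 496 bases in GENCODE release 44. H4C15 and H4C8 did not differ beyond their spread in any condition. H3C6, H3C2 and H3C3 had like means over all libraries (2.95, 2.95 and 2.84 TPM), but in attached cells H3C3 lay at 1.98 ± 0.432 TPM and H3C6 at 3.04 ± 0.356.

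**Figure D1:**
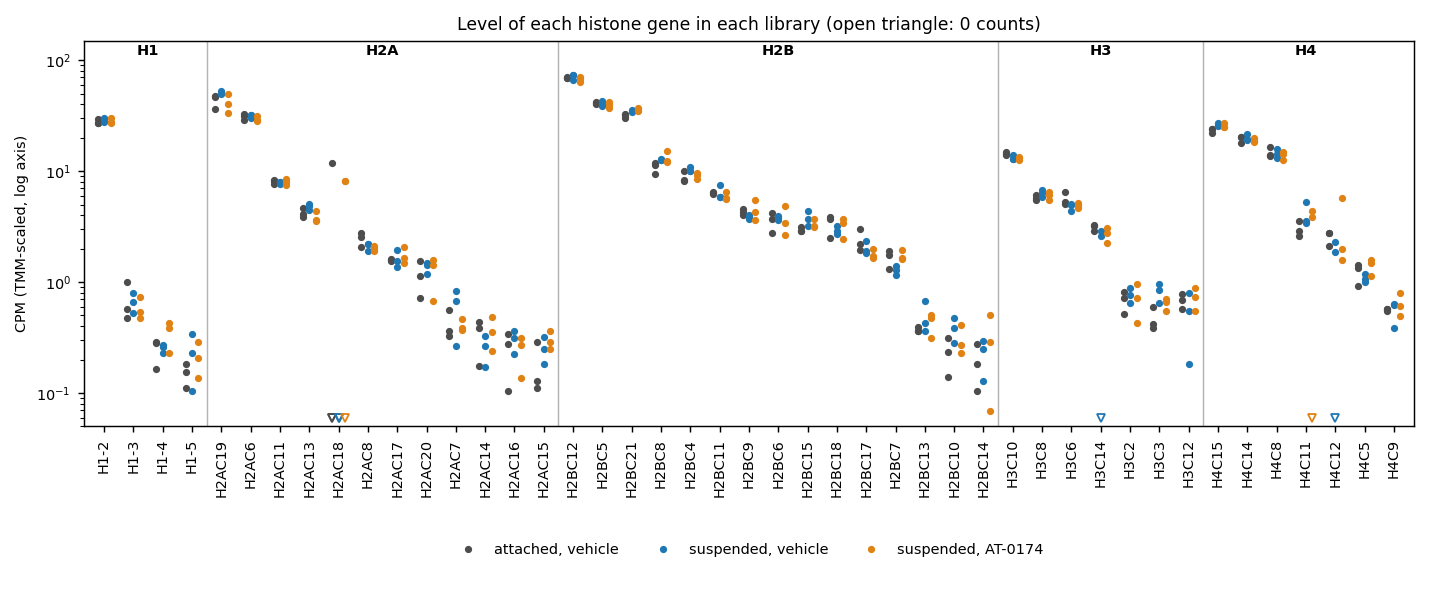
Level of each of the 45 histone genes in each of the 9 libraries, in TMM-scaled CPM on a log axis, ordered by mean level within a histone type (points are single libraries coloured by condition, and a triangle stands for libraries with 0 counts). H2BC12 lies highest at 64.3 to 74.1 CPM, and H2AC18, H3C14, H4C11 and H4C12 each have at least 1 library at 0.

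The other 21 genes of the family stayed below the minimum. H1-1, H2AC1, H2BC1 and H4C7 had 0 counts in all 9 libraries. Of the other 17, H3C15 alone exceeded 15 counts in a library, with 126 counts in suspended vehicle replicate 2 and 0 in the other 8. All 66 genes have the stem-loop, so low counts here do not show that a gene is silent.

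Many H2A and H2B genes sit back to back, transcribed away from each other from starts a short distance apart. There were 13 such pairs with starts within 1000 bases, 11 of them an H2A with an H2B gene, and in 10 both genes were among the 45. Levels within pairs are set side by side in TPM, since model lengths differ. H2BC21 averaged 24.04 TPM and H2AC20, with starts 236 bases apart, 5.35. H2AC6 averaged 50.5 TPM and H2BC4 28.04, at 219 bases. H2BC11 averaged 22.4 TPM and H2AC11, at 248 bases, 5.47, although H2AC11, whose model has 2250 bases, had the higher mean count (332 against 259). In GENCODE release 44 the H2AC11 gene spans 493 bases, so the order of this pair in TPM depends on the model length. The partner of H2BC12, H2AC12, at 251 bases, was below the minimum with a mean of 2.7 counts.

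Salmon assigned the counts to the transcript models of the authors' reference, which differ between histone types. The authors' reference gave 33 of the 45 genes a single model, and 18 genes at least 1 model over 1000 bases, which is longer than a stem-loop-ended histone mRNA. Models over 1000 bases took most counts of 17 genes. By type, they took 0% of H1 counts, 33 ± 1.39% of H2A counts, 29.7 ± 0.907% of H2B counts, 94.0 ± 0.794% of H3 counts and 61.4 ± 1.43% of H4 counts in attached cells. These shares are largely set by the reference: the 4 H1 genes have 1 short model each, and H3C10, H3C8 and H3C14 have 1 model each, of 1237, 2411 and 1656 bases, so the 0% of H1 and most of the H3 share could not have been otherwise. Over all 45 genes the share was 38.2 ± 0.665% in attached cells, 37.8 ± 0.464% in suspended cells with vehicle and 39.4 ± 0.809% with AT-0174. The share in each of the 3 AT-0174 libraries (38.6, 40.2 and 39.3%) was above that in each suspended vehicle library (37.3, 37.9 and 38.2%), and attached libraries (37.8, 37.9 and 39.0%) overlapped both. No test was run on these shares.

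Single genes show both kinds of model. H2BC21 had 1 model of 2194 bases, H2AC6 had 64.9% of its counts in a model of 1668 bases and 22.0% in one of 519 bases, and H4C15 had 97.2% in a model of 1694 bases. H4C14 was split between models of 942 bases (49.5%) and 583 bases (47.1%). At the other end, the gene of highest level, H2BC12, had a single model of 495 bases. For 18 of the 33 genes with 1 model, the model was as long as the span of the gene in GENCODE release 44. In all 18 that span ended within 20 bases of the stem-loop. Those 18 genes held 27.3% of the counts of the 45 genes. Reads that ran past such an end would have had no model of the gene to be assigned to, and the reads themselves were not analysed here. For the other 15 single-model genes, the model differed in length from the span of the gene in GENCODE release 44.

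**Figure D2:**
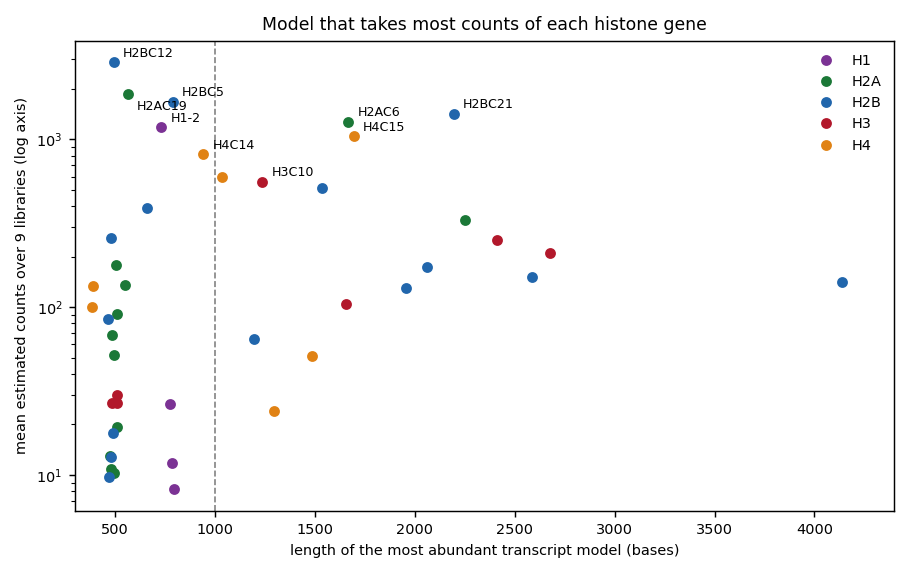
Mean estimated counts of each histone gene over 9 libraries (vertical, log axis) against the length in bases of the transcript model that takes most of its counts, coloured by type, with a dashed line at 1000 bases. The gene of highest count, H2BC12, has a model of 495 bases, while H2BC21, H2AC6 and H4C15 have models over 1500 bases.

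Several of these genes are near-identical copies, and their estimates were not independent. Salmon divides a read that fits several genes, which gives fractional counts. In 4 groups, the counts of single genes were fractional while their sum was whole (within 0.01) in each of the 9 libraries: H2AC13 with H2AC14, H2AC18 with H2AC19 and H2AC20, H4C11 with H4C12, and H4C14 with H4C15. The coding sequences of H2AC18 and H2AC19, of H4C11 and H4C12, and of H4C14 and H4C15 had 0 differing bases in the reference genome. H2AC18 had 460 counts in attached vehicle replicate 3, 396 in AT-0174 replicate 1, 360 in AT-0174 replicate 3 and 0 in the other 6 libraries. In the same 3 libraries H2AC19 had 1415, 1931 and 1487 counts. The sum over H2AC18, H2AC19 and H2AC20 was 48.6 ± 0.645 CPM in attached cells, 52.4 ± 1.07 in suspended cells with vehicle and 47.8 ± 4.62 with AT-0174. No fold change is given for H2AC18, since all 3 suspended vehicle libraries were at 0.

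Whole sums came with shifting divisions in H4 copies too. H4C11 had 0 counts in AT-0174 replicate 1, where H4C12 had 274, and H4C12 had 0 counts in suspended vehicle replicate 1, where H4C11 had 206. Their sum lay between 193 and 274 counts in the 9 libraries. H3C14 had 0 counts in suspended vehicle replicate 2, the only library in which H3C15, whose coding sequence is identical, had any (126). The sum of H3C14 and H3C15 was not whole in most libraries, so this pair is not among the 4 groups. H4C14 and H4C15 kept a steadier division, with 652 to 959 counts for H4C14 and 863 to 1303 for H4C15. Levels of single genes within these groups are therefore estimates of the division as well as of expression, and the sums are the firmer values. Fractional counts were not confined to these groups. Of the 45 genes, 28 had them in at least 1 library, among them H2BC12 and H2BC21, so their levels also rest in part on divided reads. Which genes shared those reads was not traced.

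**Figure D3:**
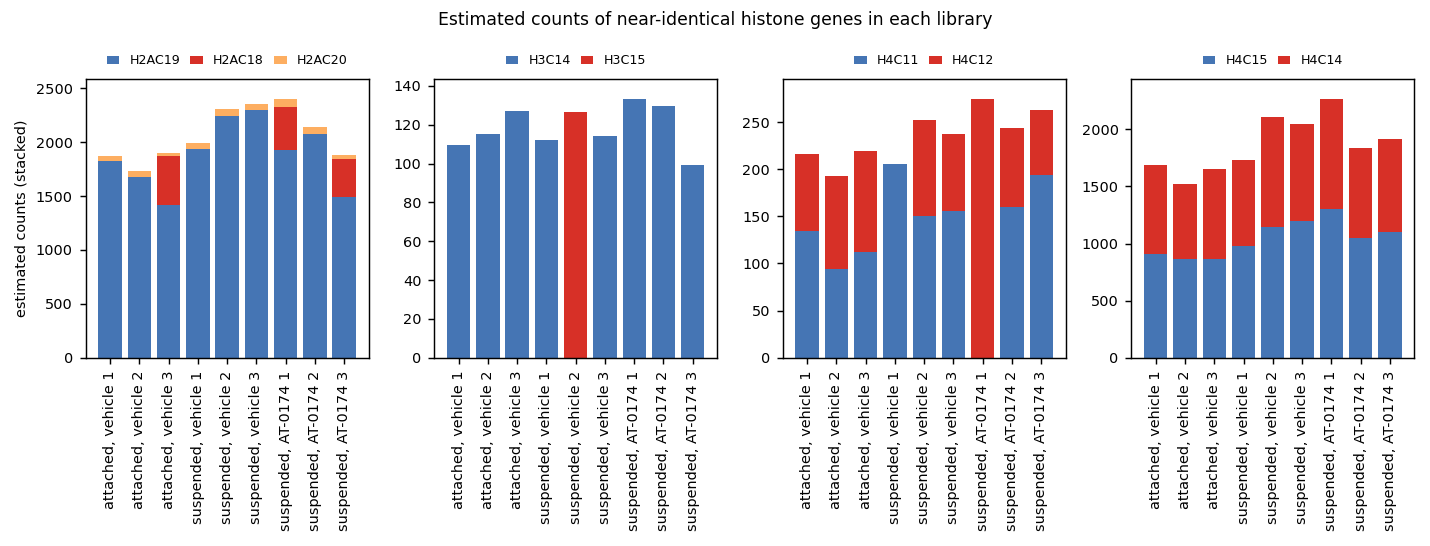
Estimated counts in each library, stacked, for 4 sets of near-identical genes: H2AC18 to H2AC20, H3C14 with H3C15, H4C11 with H4C12, and H4C14 with H4C15. In AT-0174 replicate 1 the H4 bar is all H4C12, and in suspended vehicle replicate 2 the H3 bar is all H3C15, while the bars themselves reach 274 and 126 counts.

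The comparison of suspended with attached cells, both with vehicle, asks how loss of attachment changes these genes. Of the 44 histone genes tested, 2 passed an adjusted p of 0.05, H2BC21 and H4C15, both higher in suspension, and 0 were lower. This is 4.55% of the histone genes. Of all 15528 genes tested, 21.2% were called in this comparison, 10.4% higher and 10.8% lower. All p-values here come from edgeR's quasi-likelihood test over all genes with Benjamini-Hochberg adjustment. At an unadjusted p under 0.05 there were 6 histone genes, against 34.1% of all genes. The log2 fold change was above 0 for 26 genes and below 0 for 18, with a median of 0.033, which stayed at 0.033 with H2AC18 at the bound that a count of 0 allows, and the median of all genes was −0.0003. The precision differed from that of most genes, since many histone genes have low counts: the median standard error was 0.191 for the 44 histone genes, 0.098 for the 24 with a mean of at least 100 counts and 0.0657 for all genes. H1-5 did not pass the filter on low counts.

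H2BC21, a histone H2B gene of the chromosome 1 cluster, had 32.5, 30.4 and 31.8 CPM in the attached libraries and 35.1, 34.5 and 35.3 in the suspended ones, without overlap. Its log2 fold change was 0.15 ± 0.042 (SE), or 1.11-fold, with an adjusted p of 0.0275. H4C15, a histone H4 gene of the same cluster, had 23.8, 24.0 and 22.2 CPM in attached and 25.39, 26.04 and 27.17 CPM in suspended cells, again without overlap. Its log2 fold change was 0.17 ± 0.0509, or 1.12-fold, with an adjusted p of 0.0341. With DESeq2 in place of edgeR the adjusted p was 0.0548 for H2BC21 and 0.0593 for H4C15, and with counts rebuilt from TPM it was 0.066 and 0.0907. H2BC21 lost its call when attached replicate 2 or 3, or any 1 of the 3 suspended vehicle libraries, was left out (adjusted p 0.0564 to 0.0952), and H4C15 when attached replicate 1 or 3 or suspended vehicle replicate 2 or 3 was (adjusted p at least 0.053). With H4C14 and H4C15 added together before the fit, an alternative chosen after seeing the data, the pair had a log2 fold change of 0.11 ± 0.0442 and an adjusted p of 0.0905.

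Among the other H2B genes, which encode a core histone that pairs with H2A, H2BC12 had 69.2, 69.7 and 70.0 CPM in attached and 74.1, 66.5 and 73.1 in suspended cells. Its log2 fold change was 0.03 with a 95% interval of −0.07 to 0.14, which overlaps 0. H2BC5 had a log2 fold change of −0.02 (−0.15 to 0.10). H2BC4 was 1.18-fold higher in suspension without overlap of the libraries, but its adjusted p was 0.0801. It was called with library totals in place of TMM (adjusted p 0.0346) and without attached replicate 2 (0.0213). The lowest of the H2B genes was H2BC7 at a log2 fold change of −0.36 and the highest H2BC10 at 0.74, each with an interval that included 0.

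H2A genes gave 0 calls of 12. H2AC19 had a log2 fold change of 0.23 ± 0.119 (adjusted p 0.188), and together with H2AC18 and H2AC20 one of 0.11 ± 0.058 (adjusted p 0.198). H2AC6 had 32.81, 28.97 and 31.36 CPM in attached and 31.85, 29.99 and 32.27 in suspended cells, which overlap, with a log2 fold change of 0.01 (−0.11 to 0.14). H2AC13 stood at 0.18 (−0.07 to 0.44). The linker histone gene H1-2 stood at 0.06 (−0.06 to 0.18), and the rarer H1-3 and H1-4 had intervals from −0.75 to 0.67 and from −0.82 to 0.89.

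H3 genes also gave 0 calls. H3C3 had the highest log2 fold change of the tested histone genes, 0.80 ± 0.277, with 0.418, 0.387 and 0.592 CPM in attached and 0.646, 0.839 and 0.956 CPM in suspended cells. These did not overlap, but a mean of 27 counts stands behind them and the adjusted p was 0.0576. H3C3 was called under 4 alternatives: library totals in place of TMM (adjusted p 0.0409), at least 10 counts in every library (0.0341), counts rebuilt from TPM (0.0477) and without suspended vehicle replicate 1 (0.0493). H3C10, the H3 gene of highest level, lay lower in every suspended library than in every attached one, with a log2 fold change of −0.11 ± 0.057 and an adjusted p of 0.187. H3C6 (−0.22, adjusted p 0.189) and H3C8 (0.13, adjusted p 0.346) did not pass either. Of the H4 genes other than H4C15, H4C14 had a log2 fold change of 0.04 (−0.10 to 0.18) and H4C8 one of −0.02 (−0.23 to 0.18).

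In all, the 3 attached and 3 suspended libraries did not overlap for 9 of the 44 genes, or 20.5%, with 7 higher and 2 lower in suspension. Of all genes tested, 38.1% did not overlap. The 95% interval of the log2 fold change lay within a 1.5-fold change either way for 21 of the 44 genes, among them H2BC12, H2BC5, H2BC21, H2AC6, H1-2, H3C10, H4C14 and H4C15. For the other 23 genes the interval reached past 1.5-fold in at least 1 direction. Among these are H3C3 (0.20 to 1.40) and H2BC15 (0.04 to 0.64), whose intervals lay above 0, and H4C11 (SE 0.686), whose sum with H4C12 had an SE of 0.0833.

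**Figure D4:**
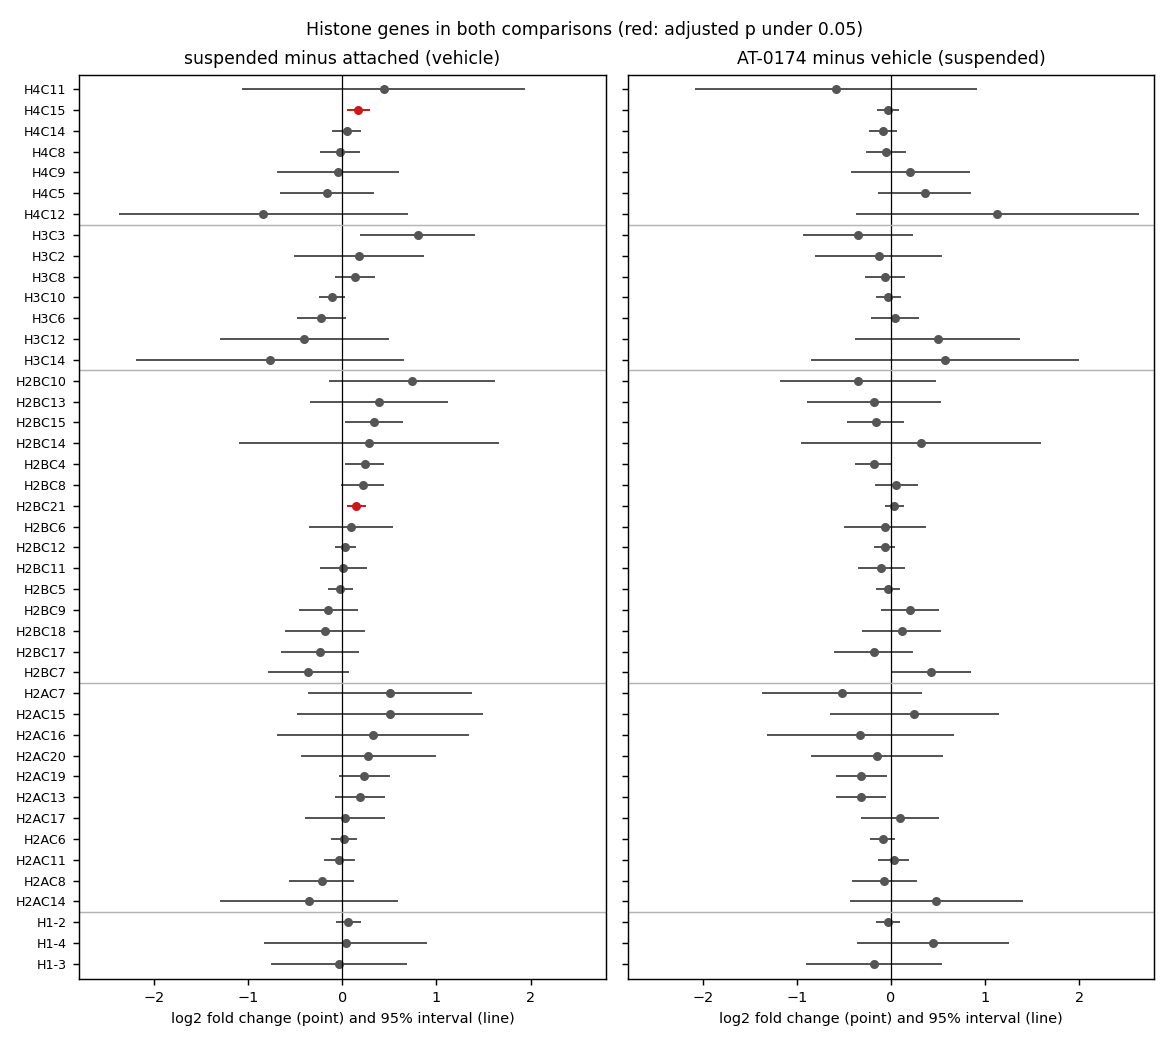
Log2 fold change (point) with its 95% interval (line) of 43 tested histone genes, grouped by type, for suspended minus attached cells with vehicle on the left and AT-0174 minus vehicle in suspended cells on the right; red marks an adjusted p under 0.05 and H2AC18, at 0 in the shared libraries, is left out. H2BC21 and H4C15 are the 2 red genes on the left at 0.15 and 0.17, and no gene is red on the right.

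Summed by type, the levels differed little between the 3 conditions. The H2B sum was 188 ± 2.67 CPM in attached cells, 195 ± 6.38 in suspended cells with vehicle and 191 ± 2.43 with AT-0174. The H2A sum was 97.1 ± 3.14, 101.6 ± 1.65 and 94.2 ± 5.57 CPM, the H4 sum 64.9 ± 1.88, 67.9 ± 1.85 and 66.4 ± 2.05, and the H1 sum 28.96 ± 1.11, 30.3 ± 1.39 and 29.6 ± 1.53. H3 was the only type with a lower mean in suspended cells with vehicle, at 28.3 ± 2.61 against 30.6 ± 1.42 CPM in attached cells and 28.7 ± 0.459 with AT-0174. That difference includes suspended vehicle replicate 2, where the counts of H3C14 stood under H3C15, which is outside the 45. With H3C15 added, the log2 ratio of suspended to attached H3 means was −0.07 instead of −0.11, and without that library −0.05. By position, the 8 genes of chromosome 1 summed to 129 ± 2.06, 138.5 ± 1.98 and 134 ± 4.64 CPM, and the 37 of chromosome 6 to 279.7 ± 3.07, 284.5 ± 9.57 and 275.5 ± 6.83. The log2 ratio of suspended to attached means was 0.06 for H1, 0.07 for H2A, 0.06 for H2B, −0.11 for H3 and 0.07 for H4. Summed TPM, which are not TMM-scaled, gave 0.17, 0.19, 0.14, 0.05 and 0.21 instead, where the median TPM ratio over 15513 tested genes was itself 0.10 on the log2 scale. In bulk samples, a different share of S-phase cells and a different amount of histone mRNA per cell cannot be told apart.

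**Figure D5:**
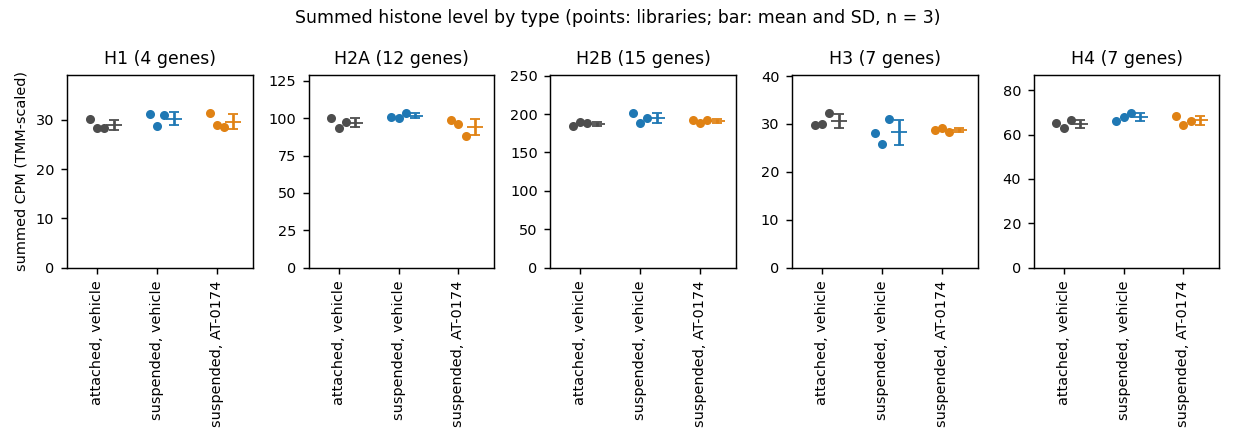
Summed TMM-scaled CPM of the histone genes of each type in each library (points) with the mean and SD of 3 libraries (bars), by condition, on axes that start at 0. The sums of every type lie within a narrow band, with H3 means of 30.6, 28.3 and 28.7 CPM.

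The comparison of AT-0174 with vehicle in suspended cells asks what the inhibitor changes once attachment is lost. It shares the 3 suspended vehicle libraries with the comparison above. Of the 44 histone genes, 0 passed an adjusted p of 0.05 in edgeR, 4 had an unadjusted p under 0.05 (9.02% of all genes did), and DESeq2 and limma-voom also called 0, with 1 and 5 genes at an unadjusted p under 0.05. DESeq2 gave no adjusted p to 13 of the 44 and so could not call them. Of all genes, 0.779% were called by edgeR here, 0.522% higher and 0.258% lower, and at such a rate a count of 0 in 44 is no result about the histone genes. The median log2 fold change was −0.04, with 18 genes above and 26 below 0, against a median of 0.0013 over all genes.

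H2BC21 had 34.6, 35.7 and 36.9 CPM with AT-0174, which overlap its vehicle values, and a log2 fold change of 0.03 (−0.06 to 0.12). H4C15 had 26.98, 25.08 and 24.93 CPM with AT-0174 and a log2 fold change of −0.03 (−0.14 to 0.08). H2BC12 stood at −0.07 (−0.17 to 0.03) and H1-2 at −0.03 (−0.15 to 0.09). The genes at an unadjusted p under 0.05 were H2AC13 (−0.32 ± 0.117, adjusted p 0.374), H2AC19 (−0.31 ± 0.118, adjusted p 0.404), H2BC7 (0.43 ± 0.191, adjusted p 0.528) and H2AC18, which has no usable fold. With its copies added, H2AC19 gave −0.13 ± 0.0575 (adjusted p 0.498). H4C11, which had the lowest log2 fold change at −0.59, is the gene listed at 0 in AT-0174 replicate 1, and the sum of H4C11 and H4C12 gave 0.09 ± 0.082. The libraries did not overlap for 4 of 44 genes, or 9.09%, against 15.4% of all genes. For 23 of the 44 genes the 95% interval lay within 1.5-fold.

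Genes that act on histone mRNAs and proteins were compared in the same fit, where 21.2% of all genes were called in suspension, 10.4% higher and 10.8% lower. Of 22 genes for the transcription and the mRNA end of histones, 21 were tested and 7 were called, 3 higher and 4 lower, with a median log2 fold change of 0.04. LSM10, a subunit of the U7 snRNP that cuts the histone mRNA end, rose from 29.6 ± 1.06 to 34.8 CPM (log2 fold change 0.23, adjusted p 0.00636). The subunits of the cap-binding complex went opposite ways: NCBP2 fell (−0.16, adjusted p 0.0037) and NCBP1 rose (0.16, adjusted p 0.0237). Lower were also SRRT, which works with the cap-binding complex (−0.13, adjusted p 0.0186), UPF1, a helicase of mRNA decay that also acts on histone mRNAs (−0.13, adjusted p 0.0148), and HINFP, an activator of H4 genes (−0.24, adjusted p 0.0211). SLBP had 97.7, 96.0 and 93.0 CPM in attached and 91.8, 92.8 and 95.1 CPM in suspended cells, which overlap (log2 fold change −0.04, adjusted p 0.556), and 90.8, 83.3 and 89.9 CPM with AT-0174, each below its vehicle libraries (−0.08, adjusted p 0.561). NPAT, the coactivator of histone genes at the histone locus body, stood at 0.07 (adjusted p 0.456).

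Replication-independent histone genes are transcribed both in and outside S phase, with ordinary poly(A) tails. They gave 5 calls of 12, all higher in suspension, with a median of 0.09. Without attached vehicle replicate 3 or suspended vehicle replicate 2 there were 2 calls. The share of all genes called higher was 10.4%. The 5 called were H2AZ1 (log2 fold change 0.21, adjusted p 0.0105) and H2AZ2 (0.14, adjusted p 0.0291), which encode the variant H2A.Z, H1-10 (0.18, adjusted p 0.0109), H3-3B for H3.3 (0.15, adjusted p 0.0149) and H2AJ (0.12, adjusted p 0.0371). Of 21 histone chaperones and importers, 7 were called, 2 higher and 5 lower. NASP, a chaperone of H3-H4 and H1, fell from 285 ± 5.72 to 235 CPM (−0.28, adjusted p 0.00435). CHAF1A, a subunit of the chromatin assembly factor CAF-1, fell by 0.17 on the log2 scale (adjusted p 0.00692), as HJURP, the CENP-A chaperone, did (adjusted p 0.0164). ANP32E, which removes H2A.Z, stood at −0.16 (adjusted p 0.00916) and TONSL, which binds new H4, at −0.18 (adjusted p 0.0171).

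Genes of DNA replication and division were taken as further lists. With both directions counted together, neither gave a larger share of calls than the 21.2% of all genes. Of 44 G1/S and replication genes 4 were called: the primase gene PRIM1 (0.21, adjusted p 0.00516), RRM2 of ribonucleotide reductase (0.15, adjusted p 0.0116) and the helicase gene MCM4 (0.10, adjusted p 0.0423) were higher, and POLE, the leading-strand polymerase, was lower (−0.20, adjusted p 0.0182). PCNA, the polymerase clamp, stood at 0.08 (adjusted p 0.107). Of 20 G2 and mitosis genes 4 were called, all higher, and 16 of the 20 had a log2 fold change above 0. Among all genes, 10.4% were called higher. The 4 were CCNB1 (0.22, adjusted p 0.00429), CENPE (0.19, adjusted p 0.0134), CDC20 (0.12, adjusted p 0.0169) and PLK1 (0.10, adjusted p 0.0395). MKI67 stood at 0.08 (adjusted p 0.325). The counts of several lists rested on single libraries. Without suspended vehicle replicate 2 there were 2 calls for G1/S, 1 for G2 and mitosis, 3 for histone factors, 2 for replication-independent histones and 4 for chaperones. Without attached vehicle replicate 3 there were 3, 3, 3, 2 and 4 in the same order.

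With AT-0174 edgeR called none of the genes of these 5 lists, at 0 of 44 G1/S, 0 of 20 G2 and mitosis, 0 of 21 histone factor, 0 of 12 replication-independent and 0 of 21 chaperone genes, and DESeq2 and limma-voom also called 0 in each. Among all genes 0.779% were called, and at such a rate these counts of 0 are no result about the lists. At an unadjusted p under 0.05 there were 5 of the 21 chaperone genes and 0 in the other 4 lists, against 9.02% of all genes.

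Other RNAs without a poly(A) tail were compared in the same fit. Of 31 such RNAs, 9 passed the filter on low counts, and RNU2-2P, RNU11 and RNU12 were at 0 in all conditions. In suspension 6 of the 9 had a log2 fold change above 0 and 3 below (−0.84 to 0.42). There 2 of the 9 were called, against 21.2% of all genes. With AT-0174 all 9 lay below 0 (median −0.34, lowest −1.79), and 1 was called, against 0.779% of all genes. RN7SL1 and RN7SL2, near-identical copies of the RNA of the signal recognition particle, were the most abundant. RN7SL2 had 30.1, 27.9 and 34.1 CPM in the attached libraries, against 43.8, 39.1 and 40.8 in the suspended vehicle libraries and 26.98, 30.13 and 27.8 with AT-0174. It was higher in suspension (log2 fold change 0.42 ± 0.0704, adjusted p 0.00185) and lower with AT-0174 (−0.54, adjusted p 0.00198), with no overlap in either comparison. RN7SL1 was higher in suspension (0.28, adjusted p 0.0266) and stood at −0.34 with AT-0174 (adjusted p 0.0909). The H1, H2A, H2B and H4 sums, but not the H3 sum, also had their highest mean in suspended cells with vehicle, and the part of tailless RNA in these values was not tested.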

How the data were processed

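Estimated counts per gene were deposited by the authors for 9 libraries, with no normalization. Per the study's methods and processing notes, adapters were removed with Trim Galore 0.6.7 and Cutadapt 3.4, reads were aligned with STAR 2.7.9a to GRCh38 with Ensembl annotation, and quantified with Salmon 1.10.1. The TPM values of transcripts, deposited by the authors, were summed by gene for levels compared between genes. The symbols matched 66 rows.

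Counts were rounded. Rare genes were dropped by the filterByExpr function in edgeR 4.0.16 under R 4.3.3, and libraries were scaled by TMM and fitted for all 9 libraries in 1 quasi-likelihood model with the condition as its term. A call needed a p below 0.05 after Benjamini-Hochberg adjustment over 15528 genes. Dividing the absolute log2 fold change by the root of its F statistic gave the SE. The procedure was tested on simulated data. Summed levels and transcript shares had no test. limma 3.58.1 and DESeq2 1.42.0 served as alternatives, as did other scalings, filters, thresholds, a replicate block, counts rebuilt from TPM and each library left out.

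Members, gene lists and tests were chosen with earlier results of these data known. Genes named are members called, the 3 of highest mean TPM of each type, those of highest and lowest log2 fold change, up to 5 called genes of each list by p, and SLBP, NPAT, PCNA and MKI67. Others, such as H2BC7, H2BC10, H2BC11, H2BC15, H3C2, NCBP1 and the near-identical copies, were named after their values were seen. Replicates are described as biological triplicates and no 2 libraries agreed within sampling noise. The p-values measure the spread between these samples. The depth was 36649997 to 48019126 counts per library, and limits the precision of rare genes most. Positions are from GENCODE release 44 and promoters from RefSeq (GRCh38).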

Additional observations from a re-analysis of the deposited data

How the results depend on the processing

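Of 1300 values recomputed under alternatives, 1208 counted as the same, 53 were weaker, 25 stronger and 14 moved. Some of the 1208 could not have differed, such as a sum when a library outside its comparison was left out. Among those that moved, the H3 sum also changed sign. A fold change counted as the same when it kept its side of the threshold, a number of calls when within 1.5-fold, and a sum when within the spread. Uncalled fold changes could thus change sign and still count as the same. In suspension H1-3 did so under 4 alternatives, and H2BC5 and H4C8 under 3 each. No called value changed sign. For suspended against attached cells, the 2 histone genes called became 4 with library totals in place of TMM, 0 with DESeq2 (4 at an unadjusted p under 0.05), 8 without a filter on low counts, 1 with counts rebuilt from TPM (H3C3, while H2BC21 and H4C15 lost their calls), 0 at an adjusted p under 0.01 and 1 (H2BC21) with near-identical copies merged, an alternative chosen after seeing the data. DESeq2 gave no adjusted p to 13 of the 44 histone genes and so could not call them. The 8 without a filter were 5 higher and 3 lower, and included the near-identical copies H2AC18, H2AC19, H3C14, H4C11, H4C12 and H4C15. Among all genes 12.8% were called without a filter and 25.8% with library totals. Leaving out 1 library gave 0 to 2 histone calls. There were 0 without attached vehicle replicate 3 or suspended vehicle replicate 2 or 3, and 1 without attached vehicle replicate 1. For AT-0174, 0 were called except for 4 without a filter (H2AC18, H2AC19, H4C11 and H4C12, all near-identical copies), and leaving out 1 library gave 0 throughout. The 36 calls over all related lists in suspension became 21 with counts rebuilt from TPM and 14 at an adjusted p under 0.01, and 19 to 37 with 1 library left out, with 19 without suspended vehicle replicate 2 and 23 without attached vehicle replicate 3. With AT-0174 the 1 call became 2 with library totals, 2 with DESeq2 and 4 without a filter. The log2 ratio of suspended to attached summed CPM moved with library totals to 0.0958 over all types, 0.1132 for H2A, 0.1032 for H2B and 0.1132 for H4. Summed TPM gave 0.1609 over all types, 0.1692 for H1, 0.1857 for H2A, 0.1415 for H2B, 0.0539 for H3, whose sign changed from −0.1137, and 0.208 for H4. For AT-0174 summed TPM gave −0.1186 over all types, −0.1741 for H2A, −0.1113 for H2B and −0.0769 for H4. The number of all genes called in suspension was 1396 with counts rebuilt from TPM, 1405 at an adjusted p under 0.01 and 1935 to 3260 with 1 library left out. With H3C15 added to the H3 sum, also chosen after seeing the data, the log2 ratio of AT-0174 to vehicle went from 0.0208 to −0.0271. The cause of these changes was not tested.

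Libraries with the same replicate number did not deviate together (r from −0.096 to 0.118, against −0.198 to 0.168 for other numbers), so the numbers do not pair samples. With a replicate block, 3 histone genes were called in suspension (H2AC18, H2BC21 and H4C15) and 0 with AT-0174.

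Rare genes are limited by depth, and copies by how reads were divided between them.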

Other observations

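Another 3 genes carry an old symbol in the table and a replication-dependent histone symbol in RefSeq, and fell outside the symbols searched. H2AW (H2AC25 in RefSeq) had 843 to 1306 estimated counts in the 9 libraries, H2BU1 (H2BC26) 271 to 347, and H4-16 (H4C16) 24 to 56.0. These would place H2AW among the abundant H2A genes by counts.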
